A study of Mus musculus with 2 samples.

Results

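The mitochondrial ribosomal protein genes are the nuclear genes for the protein parts of the ribosome inside mitochondria. They were taken here as every protein-coding gene whose symbol begins with Mrpl or Mrps and a digit, after the deposited gene identifiers had been matched to mouse GENCODE M21. The rule found 77 genes of 43346 named gene rows, and of 21461 nuclear protein-coding genes, on 17 chromosomes. By name 48 are large-subunit genes (Mrpl) and 29 are small-subunit genes (Mrps). The names are historical: the products of Mrps30 and Mrps18a sit in the large subunit of the mammalian mitochondrial ribosome, and the product of Mrps36 is now known as a part of the 2-oxoglutarate dehydrogenase complex.

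The libraries came from G1E-ER4, an immortalised line of mouse red cell precursors. Its parent line lacks the transcription factor GATA1, and GATA1 is restored as a fusion to a hormone-binding domain that 17beta-estradiol switches on. All cells had been in 10 nM 17beta-estradiol for 14 h, and polyA-selected RNA was sequenced in paired ends as biological replicates 2 and 1 of this single group. Both libraries carry one biosample record in the labels, so the spread between them may be technical. No untreated cells are analysed here, so no value below measures a response to estradiol, and a line of this kind stands for one stage of one cell type only.

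The mitochondrial ribosome translates the 13 proteins that mitochondrial DNA encodes, which are core parts of the respiratory chain and of ATP synthase. Its 2 main ribosomal RNAs come from mitochondrial DNA, while all of its proteins are made in the cytosol and imported. Many of these proteins have a bacterial counterpart and keep its number, and others were added in the course of mitochondrial evolution. In red cell precursors mitochondria also house the first and the last steps of haem synthesis, and they are cleared late in maturation.

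Replicate 2 held 60097379 expected counts, which are estimated numbers of sequenced fragments, and replicate 1 held 38395479, so the depth differed 1.57-fold. The 77 genes held 0.479% of the counts of replicate 2 (exact 95% binomial interval 0.477 to 0.480%) and 0.456% of those of replicate 1 (0.454 to 0.458%). These intervals cover counting error only. The 8 erythroid markers checked were all expressed, with mean TPM of 41.8 (Alas2) to 31405 (Hbb-bs), and the 14 markers of myeloid, lymphoid, fibroblast, endothelial and pluripotent cells all stayed under 0.1 TPM in both libraries. Among them Elane, Cd14, Pax5, Pdgfra, Pou5f1, Nanog and Sox2 had no count at all. The libraries did differ in their erythroid genes, which summed to 76733 TPM in replicate 2 and 27375 TPM in replicate 1: Hbb-bs had 49652 TPM in replicate 2 and 13158 TPM in replicate 1, and Gata1 had 2656 TPM in replicate 2 and 1132 TPM in replicate 1. These Gata1 values may include the introduced GATA1 fusion. Its fragments were not told apart from those of the line's own gene. The globin genes carry most of the erythroid sum. Of the 8 markers 4 were called higher and 3 lower in replicate 2 by the test described below. The lower ones were Klf1, with 754 TPM in replicate 2 and 1422 TPM in replicate 1, Zfpm1, with 2191 TPM in replicate 2 and 4080 TPM in replicate 1, and Tal1, with 246 TPM in replicate 2 and 329 TPM in replicate 1. The part of this difference in the results below was not tested. In bulk RNA, fewer cells of a kind and less RNA per cell cannot be told apart.

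Nearly the whole set was transcribed. Levels are given in TPM, a unit that divides counts by transcript length and scales each library to the same total, so that genes can be compared with each other. At 1 TPM or more in both libraries were 73 of the 77 genes, against 37.6% of nuclear protein-coding genes. At 50 TPM or more in both were 30 of them, against 9.05% of nuclear protein-coding genes. None was under 0.1 TPM in both libraries, and every gene had counts of at least 60 in replicate 2 and 31 in replicate 1. The 4 genes short of 1 TPM in at least one library were Mrps31, Mrpl47, Mrpl50 and Mrpl35. For the 77 genes the median level was 49.7 TPM in replicate 2, against 37.0 TPM in replicate 1. The median of their mean levels was 45.7 TPM, with an SD of 8.99 TPM between the library medians. Large-subunit genes had a median of 48.8 TPM in replicate 2 and 30.3 TPM in replicate 1, and small-subunit genes 50.5 TPM in replicate 2 and 44.7 TPM in replicate 1. The medians of the subunits therefore differed by less than the medians of the large subunit differed between libraries. All 77 together made up 0.822% of TPM in replicate 2 and 0.963% in replicate 1. For scale, 83 cytosolic ribosomal protein genes had a median of 346 TPM in replicate 2 and 165 TPM in replicate 1. For 85 nuclear genes of respiratory chain and ATP synthase subunits, the medians were 113 TPM in replicate 2 and 67.5 TPM in replicate 1.

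**Figure D1:**
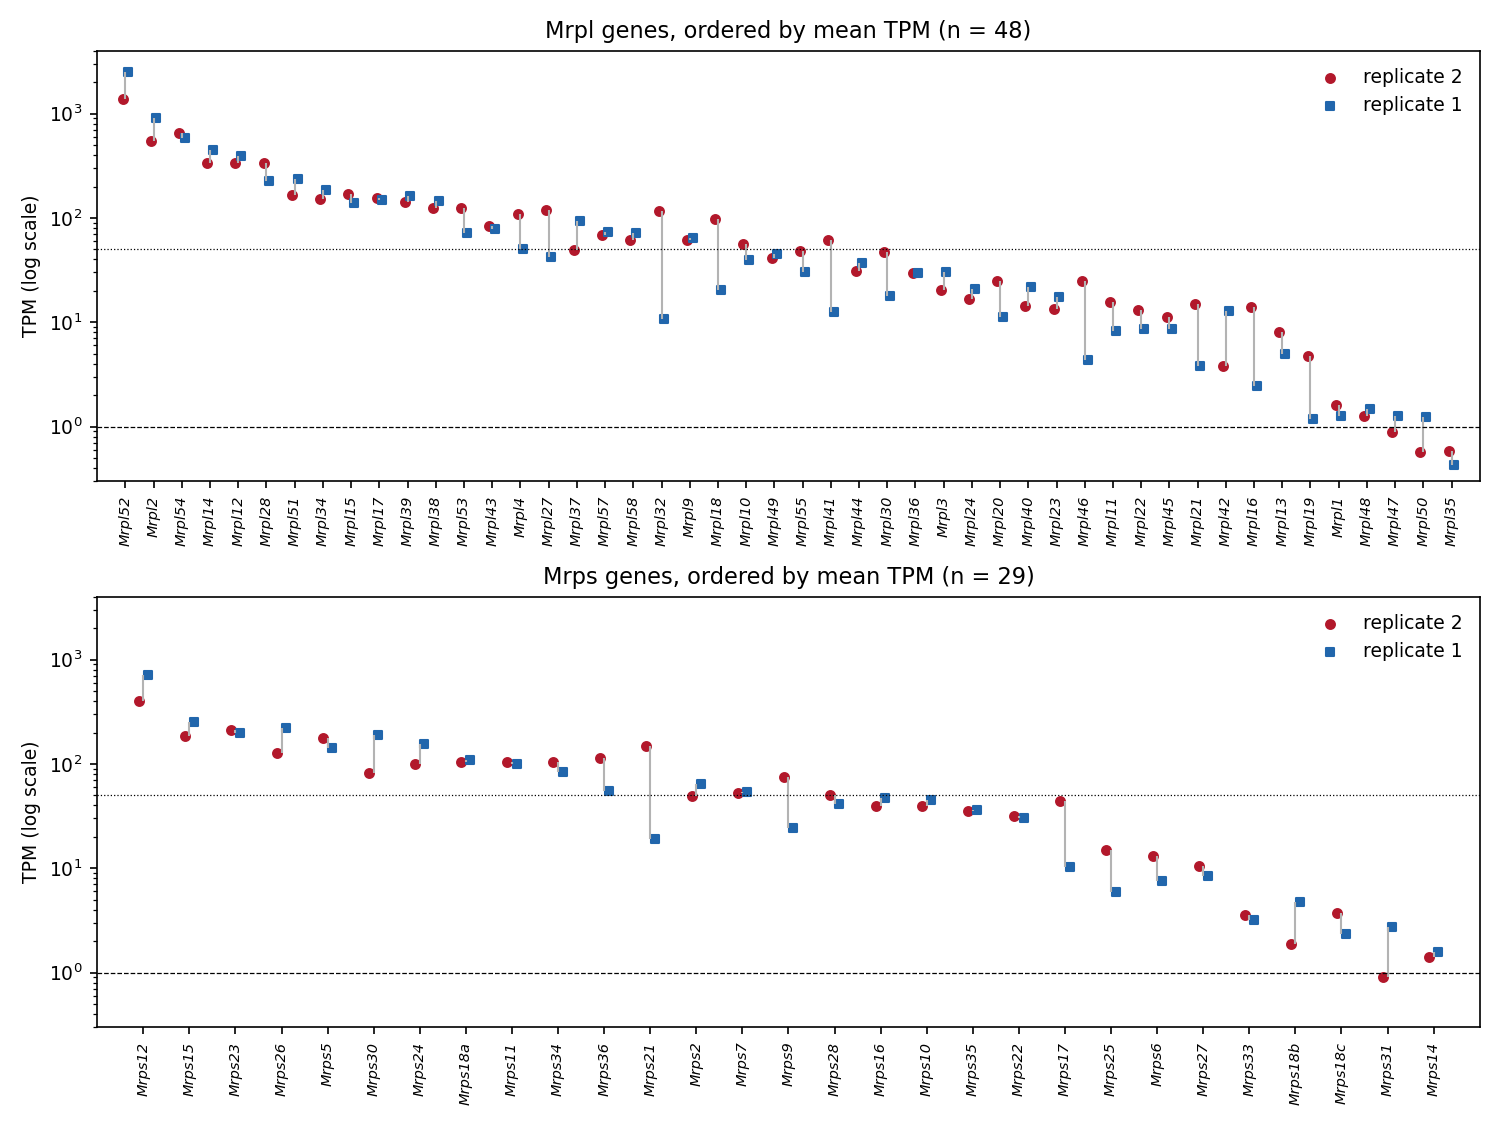
TPM on a log axis for each of the 48 Mrpl genes (upper panel) and 29 Mrps genes (lower panel), in order of mean TPM. Red circles are replicate 2, blue squares are replicate 1, grey lines join them, and the broken and dotted lines mark 1 and 50 TPM. Mean levels run from 1929 TPM (Mrpl52) down to 0.51 TPM (Mrpl35), and 73 genes lie at or above 1 TPM in both libraries.

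Although most of these genes encode parts of one particle, their mRNAs spread widely here. The highest mean TPM was 3783 times the lowest. The 90th percentile of the gene means was 210 TPM and the 10th percentile 3.02 TPM, a 69.6-fold range. The 10 highest genes supplied 55.2% of the summed TPM of the set in replicate 2 and 66.8% in replicate 1, and Mrpl52 alone supplied 16.7% in replicate 2 and 25.8% in replicate 1. Few neighbours in the order were resolved: in 4 of 76 neighbouring pairs the 2 libraries of the higher gene both exceeded the 2 libraries of the next. Over the 77 genes the order in replicate 2 and in replicate 1 had a Spearman correlation of 0.90, across genes that are not independent of each other.

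Mrpl52, a large-subunit protein with a number above the bacterial series, was the highest member (chr14:54426909-54429756, GRCm38). It had 1377 TPM in replicate 2 and 2482 TPM in replicate 1, a mean of 1929 ± 781 TPM (SD, n = 2). Both values lie above every other member in the same library. The gene has a single deposited transcript of 412 bases, of which 256 and 265 bases counted as effective length in replicates 2 and 1, so TPM is raised by its short length. It was still first by summed counts, with 19191 fragments in replicate 2 and 20038 in replicate 1, followed by Mrpl12, Mrps12, Mrpl54 and Mrpl2. These 5 genes with the most fragments were all among the 10 highest by TPM.

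Mrpl2, whose bacterial counterpart lies at the peptidyl transferase centre, had 541 TPM in replicate 2 and 898 TPM in replicate 1. Mrpl54 followed with 650 TPM in replicate 2 and 583 TPM in replicate 1. Mrps12, the counterpart of the bacterial decoding-site protein S12, had 402 TPM in replicate 2 and 718 TPM in replicate 1. Their ranges overlap, so the order of these 3 genes was not resolved. Mrpl14 had 337 TPM in replicate 2 and 444 TPM in replicate 1. Mrpl12, the counterpart of the stalk protein L7/L12 and a known partner of mitochondrial RNA polymerase, had 336 TPM in replicate 2 and 393 TPM in replicate 1. Mrpl28 had 336 TPM in replicate 2 and 228 TPM in replicate 1. In replicate 2 these 3 genes lay close together, and in replicate 1 Mrpl28 was the lowest of them. Mrps15 had 183 TPM in replicate 2 and 252 TPM in replicate 1. Most of this was not on protein-coding transcripts, which had 18.45 TPM in replicate 2 and 20.7 TPM in replicate 1. For Mrpl14 they had 84.4 TPM in replicate 2 and 52.9 TPM in replicate 1. Mrpl2 and Mrpl51 are also mostly on transcripts of other types, as given below. Mrps23 had 211 TPM in replicate 2 and 199 TPM in replicate 1, and Mrpl51 had 167 TPM in replicate 2 and 235 TPM in replicate 1. Mrps23 was the steadiest of the 10 highest, with an SD of 8.04 TPM around its mean of 205 TPM.

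At the low end stood Mrpl35, counterpart of a bacterial large-subunit protein (chr6:71812997-71826969), with 0.59 TPM in replicate 2 and 0.43 TPM in replicate 1. Mrpl50 had 0.57 TPM in replicate 2 and 1.24 TPM in replicate 1, and Mrpl47, a protein near the exit of the peptide tunnel, had 0.88 TPM in replicate 2 and 1.25 TPM in replicate 1. These levels rest on 114 and 47 fragments for Mrpl35 and on 60 and 31 for Mrpl47 in replicates 2 and 1. Mrpl48, of the central protuberance, had 1.26 TPM in replicate 2 and 1.49 TPM in replicate 1. Mrpl1, counterpart of the protein of the L1 stalk, had 1.60 TPM in replicate 2 and 1.25 TPM in replicate 1. Mrps14, of the small-subunit head, had 1.41 TPM in replicate 2 and 1.58 TPM in replicate 1. All 6 of these genes stayed under 2 TPM in both libraries, and each overlapped the next in the order of means, except that both values of Mrpl48 lay just above those of Mrpl47.

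Genes whose products share a site in the particle did not share a level. Around the peptidyl transferase centre, where peptide bonds form, mean TPM ran from 8.29 (Mrpl16) over 25.6 (Mrpl3) and 79.8 (Mrpl27) to 719 (Mrpl2). In the L7/L12 stalk and its base, which recruits translation factors, Mrpl12 averaged 364 ± 40 TPM, Mrpl10 48.0 ± 11.5 TPM and Mrpl11 11.99 ± 5.35 TPM (SD, n = 2). Along the peptide exit tunnel Mrpl17 averaged 153 ± 4.9 TPM, while Mrpl22, Mrpl23, Mrpl24, Mrpl45 and Mrpl47 averaged 1.07 to 18.8 TPM. Each of these groups thus holds at least one gene whose libraries both exceed those of every other gene of its group. In the central protuberance Mrpl38 was the highest, with 134 TPM, and Mrpl48 the lowest, with 1.38 TPM. The small-subunit proteins at the decoding site and the mRNA entry were all high in both libraries, with Mrps12 at 560 TPM, Mrps5 at 161 TPM and Mrps24 at 128 TPM. On protein-coding transcripts alone, however, Mrps5 had 10.6 TPM in replicate 2 and 2.58 TPM in replicate 1. The list used here for the small-subunit head holds 7 genes and is not complete. Of these 7, Mrps7 alone was at 50 TPM or more in both libraries, with 53.2 ± 1.5 TPM. Mrps31 and Mrps14 were under 2 TPM on average. A list of 13 members linked to human mitochondrial disease, such as Mrps16, Mrps22 and Mrpl44, was also read, and it may leave others out. All 13 were expressed, with mean TPM of 1.5 (Mrps14) to 364 (Mrpl12).

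The Mrps18 paralogues share the ancestry of bacterial S18 and occupy different places in the particle. Mrps18a (chr17:46110986-46128910) had 105 TPM in replicate 2 and 109 TPM in replicate 1. Mrps18b had 1.86 TPM in replicate 2 and 4.75 TPM in replicate 1, and Mrps18c had 3.70 TPM in replicate 2 and 2.37 TPM in replicate 1. Mrps18a stood above both others in each library. Its log2 ratio of TPM + 0.1 was 5.12 ± 0.88 to Mrps18b and 5.13 ± 0.48 to Mrps18c (SD, n = 2). Mrps18c and Mrps18b changed places: their log2 ratio was 0.96 in replicate 2 and -0.97 in replicate 1, with a mean of -0.01 ± 1.36.

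Per gene, the libraries differed by far more than counting error. The comparison was an exact two-sided binomial test on rounded expected counts, with library sizes scaled by TMM and Benjamini-Hochberg adjustment over 11230 genes. Calls needed an adjusted p under 0.05 together with a difference of 1.5-fold or more. It compares 2 libraries of one group, not conditions, and replicate 2 is on top of each fold. Of the 77 genes 35 were called, against 40.9% of all tested genes. Higher in replicate 2 were 25 members (background 24.0%) and lower in replicate 2 were 10 members (background 16.9%). The share of members called was thus near the background, with somewhat more higher and fewer lower calls in replicate 2 than among all genes. Without the fold minimum 61 of 77 passed the adjusted p, against 72.9% of all tested genes. At a minimum of 2-fold 22 of 77 were called, against 21.5% of all tested genes, and 18 of the 22 were higher in replicate 2. The split by direction among all tested genes at 2-fold is not given here, so the 18 have no background beside them.

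**Figure D2:**
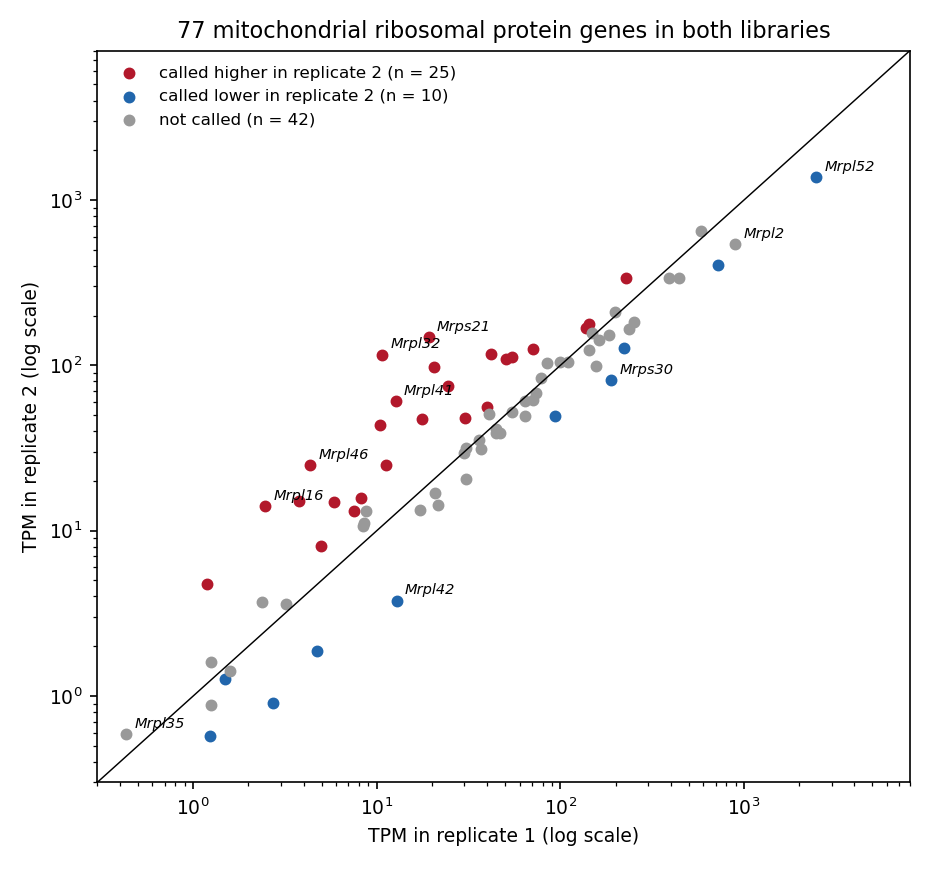
TPM in replicate 2 against TPM in replicate 1 for the 77 genes, on log axes with the line of equality. Red points were called higher in replicate 2 (25 genes), blue points lower (10 genes), and grey points were not called. Mrpl32 lies farthest above the line, at 116 TPM in replicate 2 and 10.7 TPM in replicate 1.

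The largest difference was that of Mrpl32, a large-subunit protein whose maturation by a mitochondrial protease is known to control ribosome assembly. Mrpl32 had 116 TPM in replicate 2 and 10.7 TPM in replicate 1. Its counts were 3872 in replicate 2 and 203 in replicate 1, an 11.5-fold difference after scaling. Mrps21 had 148 TPM in replicate 2 and 19.2 TPM in replicate 1 (7.53-fold by counts, adjusted p = 2.85e-245 by the exact binomial test). Both genes were over 100 TPM in replicate 2 and under 20 TPM in replicate 1. Mrpl46, of the central protuberance, had 24.8 TPM in replicate 2 and 4.33 TPM in replicate 1 (6.14-fold). Mrpl16, at the peptidyl transferase centre, had 14.1 TPM in replicate 2 and 2.46 TPM in replicate 1 (6.12-fold). Mrpl41 had 60.9 TPM in replicate 2 and 12.7 TPM in replicate 1 (5.57-fold). In all 7 members were called with at least a 4-fold difference, and each of the 7 was higher in replicate 2. The share of all tested genes at 4-fold is not given here, so this count describes the members only.

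In the other direction differences were smaller. Mrpl42 had 3.78 TPM in replicate 2 and 12.8 TPM in replicate 1, a fold of 0.314 by counts. Mrps30 had 81.5 TPM in replicate 2 and 188 TPM in replicate 1 (0.466). Mrpl37 had 49.1 TPM in replicate 2 and 93.9 TPM in replicate 1 (0.632). For Mrpl37 the direction turned when protein-coding transcripts alone were counted, with a log2 fold of 0.12 against -0.66. The abundant Mrpl52 and Mrps12 were also called lower in replicate 2, with folds of 0.581 and 0.597. On the log2(TPM + 1) scale, the 75 members with a mean of at least 1 TPM had a median difference between replicate 2 and replicate 1 of 0.06. The same median over the other nuclear protein-coding genes was -0.09. In 12 members the difference had opposite signs by TPM and by counts.

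The calls by class of gene are given without a test, since the classes were looked at after the values were seen, and beside the background of 40.9% called, 24.0% higher and 16.9% lower in replicate 2. Of 27 large-subunit genes with the number of a bacterial protein (up to 36), 14 were called (51.9%), all of them higher in replicate 2. Of 21 large-subunit genes with a higher number, 4 were called higher and 5 lower in replicate 2 (42.9% in all). Among the small-subunit genes, those with bacterial numbers (up to 21) had 5 higher and 2 lower calls in 16 genes (43.8%), and the others had 2 higher and 3 lower calls in 13 genes (38.5%). The share called in either direction thus lay near the background in 3 of the 4 classes and somewhat above it in the first. Of the 6 exit tunnel genes none was called with the exact binomial test and the fold minimum, although 3 of them (Mrpl17, Mrpl22 and Mrpl45) had an unadjusted and an adjusted p under 0.05 by the same test. Of the 13 listed human disease genes only Mrps25 was called (7.69%, against the same background of 40.9%).

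Many members were assigned to transcripts that GENCODE M21 does not type as protein coding. The most abundant transcript was typed otherwise in 23 of 77 genes (29.9%), against 1676 of 7989 other expressed nuclear protein-coding genes (20.98%). It was a retained intron in 10 genes, a processed transcript in 8 and a target of nonsense-mediated decay in 5. In 18 of the 23 the most abundant transcript was not protein coding in both libraries. These transcripts were short, with a median length of 580 bases against 1033 bases in the 54 genes led by a coding transcript. Protein-coding transcripts held 74.2% of the members' TPM in replicate 2 and 69.3% in replicate 1. By fragments, which are not divided by length, they held 80.0% in replicate 2 and 73.2% in replicate 1, and then 16 genes were led by a transcript of another type. The deposited values do not show reads along the gene, so how well these fragments tell such transcripts apart was not tested.

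**Figure D3:**
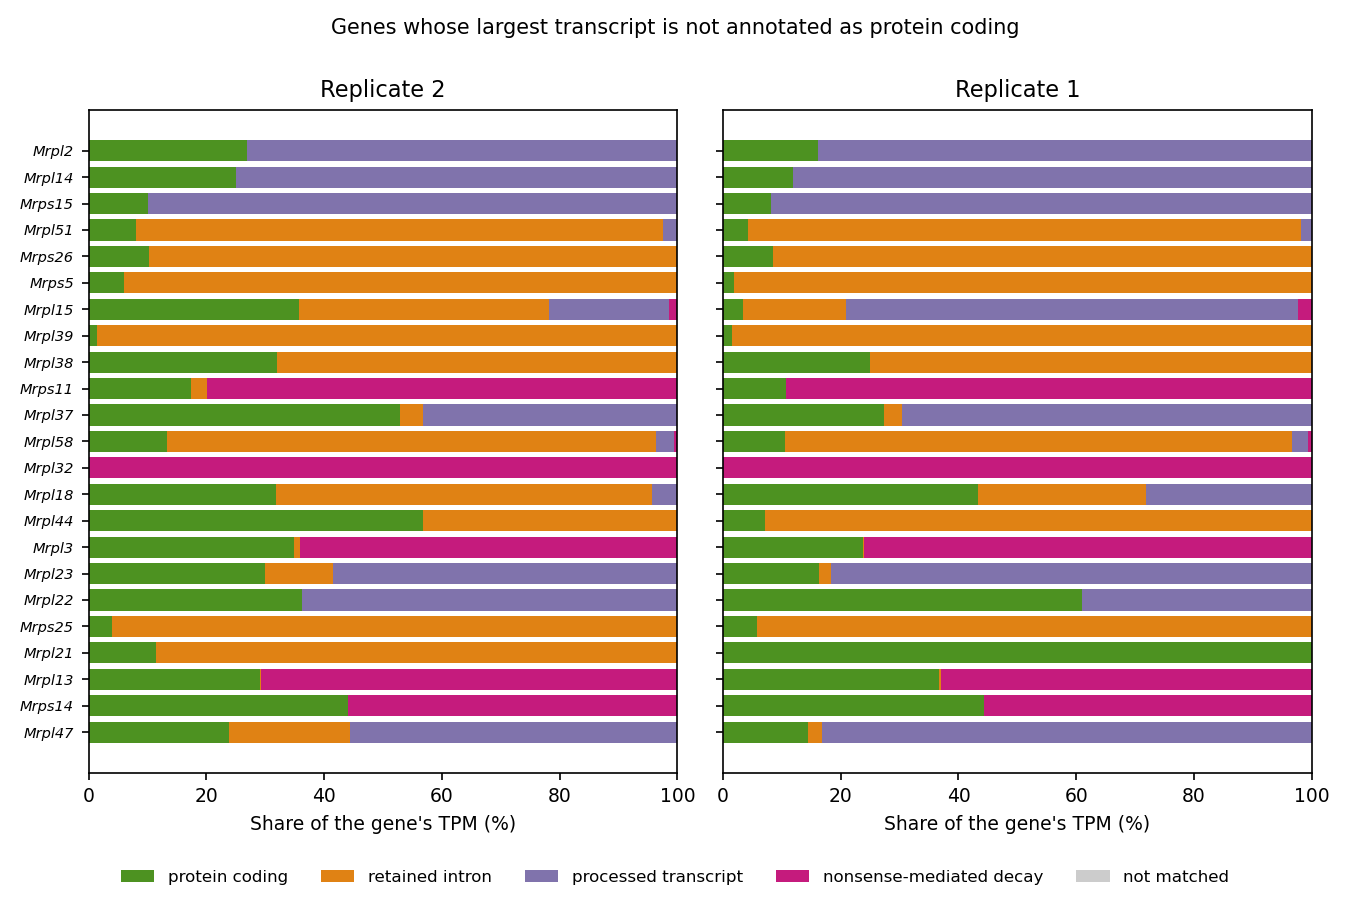
Share of each gene's TPM by GENCODE M21 transcript type for the 23 genes whose most abundant transcript is not typed protein coding, highest mean TPM at the top, with replicate 2 left and replicate 1 right. Green bars are protein-coding transcripts. They are absent in Mrpl32 and hold under 10% in both libraries in Mrpl39, Mrps25, Mrps5 and Mrpl51.

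The genes with the lowest coding share of TPM among those at 5 TPM or more were Mrpl32, Mrpl39, Mrps25, Mrps5 and Mrpl51. Mrpl32 has one deposited transcript, which M21 types as a decay target, so its coding share of 0% comes from the annotation. In Mrpl39 a retained-intron transcript of 523 bases took 98.6% of the gene's TPM in replicate 2 and 98.4% in replicate 1. The full coding transcript Mrpl39-201, of 2294 bases, had 1.95 TPM in replicate 2 and 2.62 TPM in replicate 1. The coding share was 4.02% in replicate 2 and 5.78% in replicate 1 for Mrps25. It was 5.93% in replicate 2 and 1.80% in replicate 1 for Mrps5, and 8.08% in replicate 2 and 4.29% in replicate 1 for Mrpl51. By fragments the coding part was larger. For Mrps5 it was 2483 of 5912 in replicate 2 and 340 of 2124 in replicate 1. For Mrps25 it was 192 of 511 in replicate 2 and 62 of 133 in replicate 1. For Mrpl51 it was 1898 of 5501 in replicate 2 and 798 of 3804 in replicate 1. For Mrpl39 it was 226 of 3027 in replicate 2 and 171 of 1996 in replicate 1. In these 5 genes the gene's TPM therefore says little about the level of the annotated coding mRNA. The second-ranked Mrpl2 shows the same on a larger scale. Its coding transcripts summed to 146 TPM in both libraries (145.53 in replicate 2 and 145.54 in replicate 1), and the difference between libraries lay in the 434-base Mrpl2-205, with 395 TPM in replicate 2 and 753 TPM in replicate 1. Counting coding transcripts only, 70 members were at 1 TPM or more in both libraries and 19 at 50 TPM or more.

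Transcript use also differed between libraries. At least 2 transcripts with 10% or more of the gene's TPM in both libraries were found in 27 genes, and in 11 genes the most abundant transcript was not the same in replicate 2 and replicate 1. In Mrpl15, the coding share was 35.7% in replicate 2 and 3.46% in replicate 1. In Mrpl21, the retained-intron transcript Mrpl21-203 held 86.8% of the TPM in replicate 2 and 0% in replicate 1, where all 76 fragments were on coding transcripts. Mrpl15 and Mrpl21 are named as examples chosen after their values were seen.

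The GC content of the most abundant transcript ran with the level. Of 25 genes under 50% GC, 3 were at 50 TPM or more in both libraries, with median TPM of 14.1 in replicate 2 and 8.54 in replicate 1. Of 28 genes between 50 and 55% GC, 8 were, with medians of 41.5 TPM in replicate 2 and 20.4 TPM in replicate 1. Of 24 genes at 55% or more, 19 were, with medians of 116 TPM in replicate 2 and 147 TPM in replicate 1. The order of the bins was the same in both libraries. Over 75 members with a mean of at least 1 TPM the Spearman correlation of GC with mean TPM was 0.58, and over 8227 other nuclear protein-coding genes it was 0.38; these are descriptions across genes that share 2 libraries. It was 0.65 over the 52 members whose M21 sequence had the length of the deposited transcript. The ratio between libraries had a correlation of -0.15 with GC, and length one of -0.25 with the level. Whether the GC content of the fragments affected their recovery was not tested.

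**Figure D4:**
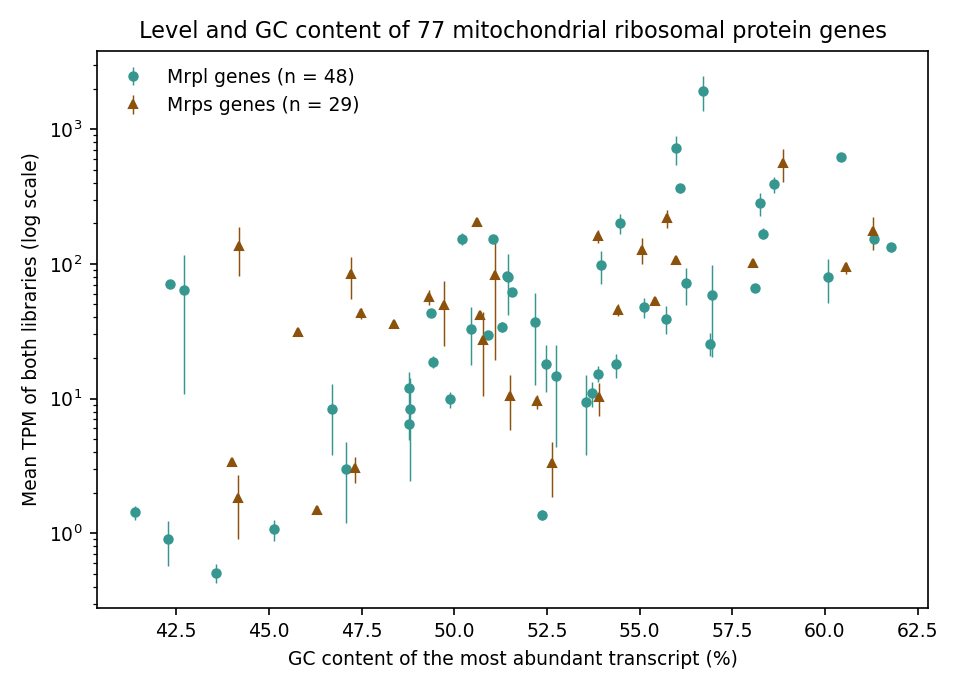
Mean TPM of both libraries, on a log axis, against the GC content of each gene's most abundant transcript in percent, for 48 Mrpl genes (circles) and 29 Mrps genes (triangles). Vertical lines span the 2 libraries. The 24 genes at 55% GC or more include 19 of the 30 genes that were at 50 TPM or more in both libraries.

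Another gene starting nearby on the opposite strand was common. In M21, 33 of the 77 genes (42.9%) had a protein-coding gene on the opposite strand that starts within 1000 bases of their own start, against 20.2% of 7989 other expressed nuclear protein-coding genes and 10.8% of all 21384 others. Mrps11 and Mrpl46, which neighbour each other, are counted once each in what follows. In 22 pairs the starts lay within 250 bases. The genes overlapped in 15 pairs and lay apart in 18. The neighbour was at 1 TPM or more in both libraries in 28 pairs. Of the pairs, 19 had the mitochondrial ribosomal protein gene higher in both libraries and 12 its neighbour. The sources used here do not state whether fragments were counted by strand, and 22 of the 77 genes overlap a coding gene on the other strand, so part of their fragments could belong to either gene.

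Mrps11 and Mrpl46 are each other's neighbour, with starts 412 bases apart inside an overlap. Mrps11 had 105 TPM in replicate 2 and 99.2 TPM in replicate 1, while Mrpl46 had 24.8 TPM in replicate 2 and 4.33 TPM in replicate 1. By counts, Mrps11 differed 1.15-fold and was not called, while Mrpl46 was called 6.14-fold higher in replicate 2. Mrpl49 had 41.5 TPM in replicate 2 and 44.9 TPM in replicate 1. Its neighbour Fau, which encodes a cytosolic ribosomal protein fused to a ubiquitin-like protein and starts 59 bases away, had 4100 TPM in replicate 2 and 2888 TPM in replicate 1. Mrps12 starts 172 bases from Sars2, the mitochondrial seryl-tRNA synthetase, which had 63.7 TPM in replicate 2 and 62.9 TPM in replicate 1. Mrpl47 pairs with Ndufb5, a complex I subunit with 64.2 TPM in replicate 2 and 6 TPM in replicate 1, and the low Mrpl47 did not share that difference, with 0.88 TPM in replicate 2 and 1.25 TPM in replicate 1. The pairs named here were chosen after their values were seen. In 6 pairs both genes were called between the libraries, in 4 of them the same way. Of all tested genes, taken singly, 40.9% were called. The share for other neighbouring pairs is not given here, so these counts are not read as a shared behaviour of neighbours.

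**Figure D5:**
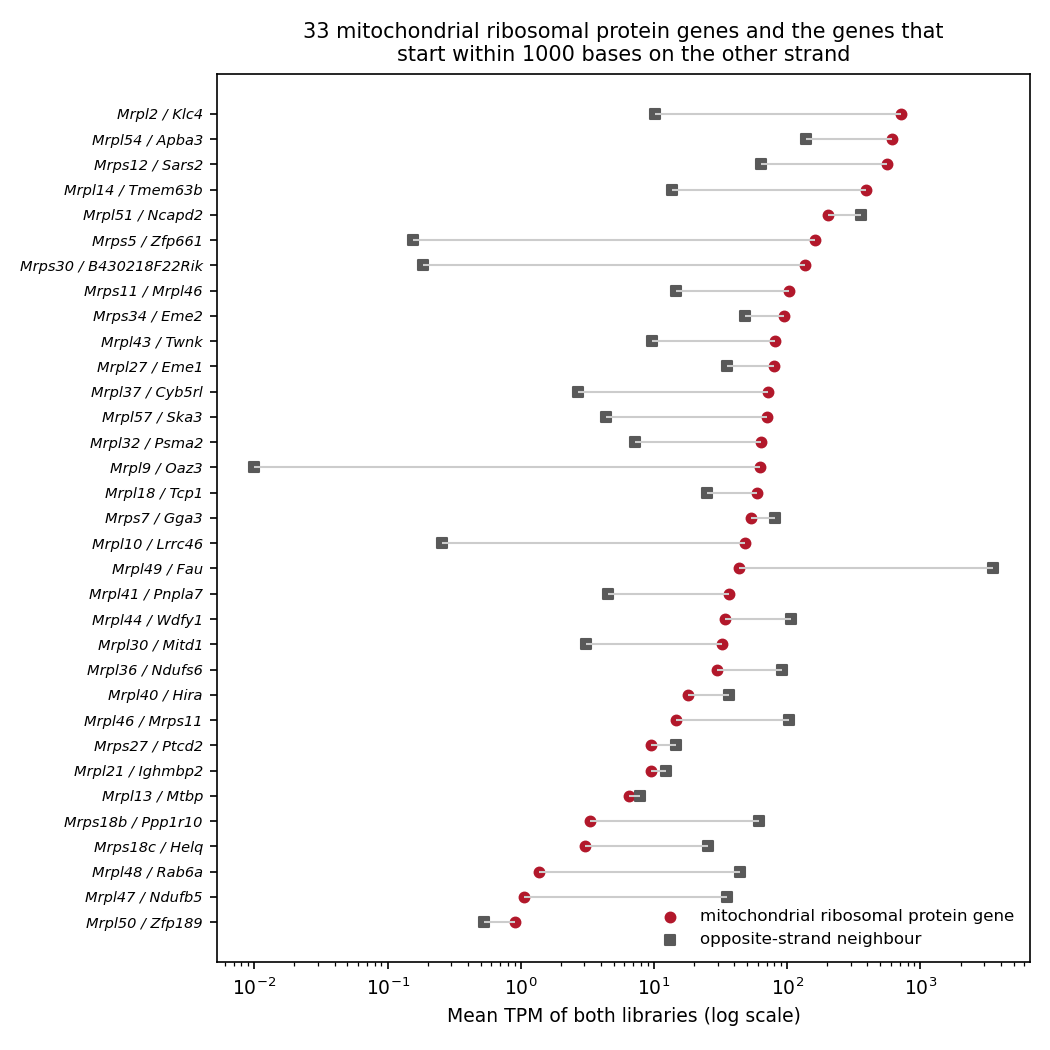
Mean TPM of both libraries, on a log axis, for 33 mitochondrial ribosomal protein genes (red circles) and the protein-coding gene starting within 1000 bases on the other strand (grey squares), in order of the red circles. Grey lines join the pairs, and Mrps11 and Mrpl46 appear in both roles. Mrpl49 is the pair with the widest gap in favour of the neighbour, Fau at a mean of 3494 TPM.

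Promoter windows of 300 bases, from 250 before to 50 after the gene start (RefSeq, GRCm38.p6), were found for 68 of the 77 genes. The 9 others (Mrps34, Mrpl4, Mrps35, Mrps28, Mrpl19, Mrpl15, Mrpl54, Mrpl13 and Mrpl38) are named only. Searched on both strands, the letters AAGATGGC, the core of the motif bound by YY1, were in windows of 12 of the 68 genes (17.6%). They were in windows of 6.63% of 6422 other expressed genes and of 3.61% of all 16249 other genes searched. In 8 of the 12 the motif was in the sense of the gene and lay after the start, and in 6 of these its ATG was the annotated start codon. The 8 sense sites are shown with the motif in capitals, since they place the same letters at the start of mRNAs whose levels differ widely. Each is read 5′ to 3′ in the direction of the gene.
Mrps18a, chr17:46111007-46111030: tgcgttccAAGATGGCggccctca
Mrps24, chr11:5707652-5707673, reverse strand: gccggcccAAGATGGCgtggtc
Mrps7, chr11:115604150-115604173: cagcggccAAGATGGCtgcccccg
Mrpl37, chr4:107066825-107066848, reverse strand: cacgggcaAAGATGGCggcgtcca
Mrpl49, chr19:6057724-6057747, reverse strand: gaggcgccAAGATGGCagcagcgg
Mrps27, chr13:99344792-99344815: tgcgctccAAGATGGCggctccca
Mrpl42, chr10:95501907-95501930, reverse strand: attgaagcAAGATGGCgagcgcgc
Mrpl35, chr6:71823746-71823769, reverse strand: caggctgcAAGATGGCggcttcca

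The genes with these sites span the set, from Mrps24 at 99.8 TPM in replicate 2 and 156 TPM in replicate 1 and Mrps18a at 105 TPM in replicate 2 and 109 TPM in replicate 1, down to Mrpl35 at 0.59 TPM in replicate 2 and 0.43 TPM in replicate 1, the lowest of all. In Mrpl37 and Mrpl42 the ATG of the motif is not a start codon of M21. Of other motifs, CCGGAAG, which ETS factors such as GABPA bind, was in windows of 25 genes (36.8%, against 25.2% of expressed and 13.4% of all others). TGCGCA, the core of the NRF1 motif, was in 21 (30.9%, against 18.5% and 11.3%). GGGCGG, the GC box, was in windows of 34 genes (50%), fewer than the 73.7% of other expressed genes and close to the 51.4% of all others. AGATAA, a form of the GATA motif, was in 10 (14.7%, against 6.90% and 10.9%). CACGTG was in 5 (7.35%, against 13.0% and 9.24%), CCAAT in 26 (38.2%, against 44.3% and 42.0%) and TATAAA in 5 (7.35%, against 7.01% and 14.2%). A match is a string of letters and not a measured binding site, and no binding data are used here.

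The 150 bases before the RefSeq start are shown for the highest and the lowest member, to set the ends of the range side by side. Capitals mark any of the 8 searched motifs except AGATAA and TATAAA, on either strand. Mrpl52 holds an ETS motif, read on the other strand, 47 bases before the start. Mrpl35 holds none of the marked motifs in this stretch. The M21 gene of Mrpl35 extends past its RefSeq start.
Mrpl52, chr14:54426759-54426908: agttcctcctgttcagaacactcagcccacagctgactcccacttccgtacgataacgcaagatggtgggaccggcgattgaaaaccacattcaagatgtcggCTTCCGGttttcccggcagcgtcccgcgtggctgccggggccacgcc
Mrpl35, chr6:71823785-71823934, reverse strand: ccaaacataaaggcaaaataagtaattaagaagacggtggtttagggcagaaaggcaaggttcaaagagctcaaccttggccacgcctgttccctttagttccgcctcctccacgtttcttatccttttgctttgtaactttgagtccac

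The other parts of the machinery were mostly expressed as well. The 5 mitochondrial ribosomal proteins that have other symbols were all at 1 TPM or more in both libraries. Aurkaip1 had 298 TPM in replicate 2 and 330 TPM in replicate 1, Gadd45gip1 had 85.2 TPM in replicate 2 and 126 TPM in replicate 1, and Dap3, a GTP-binding protein of the small subunit, had 139 TPM in replicate 2 and 28.7 TPM in replicate 1. Dap3 (2.21-fold by counts) and the low Ptcd3 (1.54-fold) were called higher in replicate 2. Of 24 assembly factors, 19 were expressed in both libraries and 12 of the 23 tested were called, 6 in each direction, against the background of 40.9%. Ngrn, Malsu1, Rbfa and Noa1 were the highest, with means of 59.7, 56.9, 55.9 and 41.6 TPM. Nsun4, a methyltransferase that acts on the small ribosomal RNA, had 0.20 TPM in replicate 2 and 0.34 TPM in replicate 1. Gtpbp10 had no counts in either library, which allows up to 0.0499 CPM in replicate 2 and 0.0781 CPM in replicate 1. Of 13 translation factors, 12 were expressed in both libraries, and 4 of 13 were called (30.8%, against 40.9%), all higher in replicate 2. Oxa1l, the insertase that takes up new proteins at the membrane, averaged 68.5 ± 8.8 TPM and Tufm, the elongation factor, 32.1 ± 16.6 TPM (SD, n = 2). Among cytosolic ribosomal protein genes 53 of 81 tested were called, 39 of them higher in replicate 2. Among respiratory chain and ATP synthase genes 41 of 82 were called, 33 of them higher in replicate 2. These are 65.4% and 50% called, against 40.9% called and 24.0% called higher among all tested genes.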

How the data were processed

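PolyA RNA-seq of 2 libraries of one group was used as deposited, with 1 gene table and 1 transcript table per library. Per the labels the build is mm10, and per the deposited notes the annotation is GENCODE M4. Not given in the sources used here: the aligner, the quantifier's version and any strand setting. The deposited expected counts are estimated fragments with shared reads divided. The deposited TPM divides them by effective length and scales each library to a total of 1000000, per the file headers. Per the file headers, each transcript also has a deposited percent of its gene's TPM.

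Identifiers were matched to GENCODE M21 (42462 of 43346 named rows). Mrpl33 is not analysed here. Unnamed rows and spike-ins were left out; they held 0 counts in replicate 2 and 2 in replicate 1. Shared reads gave 14 members an uncertain count, by at most 6.65% (posterior SD of Mrpl23).

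Computed here were medians and SDs, TMM factors (edgeR 4.0.16), exact binomial tests (scipy 1.17.1) on rounded expected counts for genes with a sum of at least 10, with 0.5 counts added for folds, and Spearman correlations. DESeq2 1.42.0 gave alternative size factors. The test was run on simulated data first. The full values go to the 10 highest and 6 lowest members, the 5 largest calls each way at 5 TPM or more, the Mrps18 genes, the 5 lowest coding shares and fixed role groups. The members and lists were chosen with earlier results of these data known. The motifs, neighbours, GC bins and number classes were added after values were seen, and the comparisons named for them are descriptions.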

Additional observations from a re-analysis of the deposited data

Results flagged for a closer look

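Rows outside the 77 genes that bear a family name also held fragments. The processed pseudogene Mrpl23-ps1 had 106.32 expected counts in replicate 2 and 38.02 in replicate 1, with a posterior SD of 21.4 counts in replicate 2 and 11.2 in replicate 1. What part of its fragments was shared with other rows was not tested. Mrpl48-ps had 17.32 expected counts in replicate 2 and 11.18 in replicate 1, with a posterior SD of 0.89 counts in replicate 2 and 0.41 in replicate 1. Both exceed the 3 counts that an observed count of 0 allows. Mrpl23 itself had 322 counts in replicate 2 and 218 in replicate 1, with the same posterior SDs as Mrpl23-ps1 (21.4 and 11.2 counts). Mrpl48 had 65.7 counts in replicate 2 and 72.8 in replicate 1, with the same posterior SDs as Mrpl48-ps (0.89 and 0.41 counts). The 3 Mrps36 pseudogene rows held at most 2.2 counts.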

How the results depend on the processing

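No paired analysis was possible because both libraries belong to one group. The count of members at 1 TPM or more kept within 1.5 times under all its alternatives. That at 50 TPM or more was 18 at a threshold of 100 TPM and 19 with coding transcripts only. The median mean TPM of all members was 27.0 with coding transcripts only and 28.7 as CPM not divided by length. For large-subunit genes it was 19.1 with coding transcripts only. For small-subunit genes it was 35.8 with coding transcripts only, 34.3 as CPM, and 54.6 as counts per deposited length. By single library the medians were 37.0 to 49.7 TPM (all), 30.3 to 48.8 TPM (large) and 44.7 to 50.5 TPM (small), and 21 to 22 genes were led by a non-coding transcript. The median log2 ratio was 0.21 with TMM-scaled counts, which are not divided by length. Calls in either direction numbered 61 with no fold minimum and 22 with a minimum of 2, and lower calls 24 and 4; the other settings stayed within 1.5 times, and 34, 35 and 29 of the 35 called members were called the same way under total-count scaling, DESeq2 size factors and the fold of TPM + 1. Genes with 2 or more transcripts numbered 7 at a threshold of 25%. With coding transcripts only, an alternative added after the data were seen, 30 of the 35 were called the same way, and Mrpl21 and Mrpl37 turned round, with log2 folds of -0.88 and 0.12 against 1.82 and -0.66. Neighbour counts at 500 and 2000 bases were 25 and 35, also added later. The cause of these shifts was not tested. Of 279 single-gene values 255 kept their call. With 1 group of 2 libraries no error beyond counting enters the test. At 1 TPM or more were 73 members in replicate 2 alone and 76 in replicate 1 alone.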
